A study of Mus musculus with 8 samples.

Results

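The 10 genes described here, *Wnt3*, *T*, *Eomes*, *Mesp1*, *Mixl1*, *Lhx1*, *Gsc*, *Evx1*, *Msx1* and *Msx2*, are genes of the primitive streak and early mesoderm, taken as a list from 21428 gene symbols in the count table. Each was represented by the RefSeq record with the highest mean read count. All 10 had a record, and 9 passed the filter on low counts, with *Mesp1* the 1 that did not. RNA was sequenced from 8 individual clones of mouse induced pluripotent stem cells (iPSCs), 4 TKO and 4 Ctrl, to ask whether loss of the PIWI proteins alters the transcriptome of pluripotent cells. The TKO clones carry null alleles of the 3 mouse *Piwi* genes, a GFP replacement of *Miwi* (*Piwil1*), an exon deletion of *Mili* (*Piwil2*) and stop codons in *Miwi2* (*Piwil4*). The Ctrl clones are given in the labels only as control, and the paper describes their donors as littermates, triple heterozygous in one place and wild type or heterozygous in another. All clones of both genotypes were made from embryonic fibroblasts (MEFs) of a mixed strain background that carried an Oct4-GFP reporter, by retroviruses with OCT4, SOX2, KLF4 and c-MYC. Oct4-GFP positive colonies were picked onto inactivated feeder MEFs and grown in serum medium with LIF, to below passage 10. Valproic acid was added in some reprogramming experiments, and for which clones is not given in the sources used here. Each clone is 1 reprogrammed line, and the labels do not say which clones share an embryo, so p-values measure the spread between clones. The TKO clones are numbered 47 and 48 (forties) and 35 and 37 (thirties), the Ctrl clones 41 and 43 (forties) and 33 and 34 (thirties). What these 2 clone series stand for is not in the labels.

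The primitive streak is the site at which cells of the epiblast leave the epithelium and become mesoderm and definitive endoderm. WNT3 and NODAL signals from the posterior epiblast start it, through beta-catenin with TCF/LEF factors and through SMADs with FOXH1, and switch on the T-box genes *T* and *Eomes* and the homeobox gene *Mixl1*. Pluripotent cells kept in LIF hold these genes low, and a small share of cells that leave the naive state can express them. In bulk RNA, more cells of a type and more RNA per cell cannot be told apart.

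Total counts ran from 24593995 to 52457455 per TKO library and from 8983203 to 24688324 per Ctrl library, and size factors from 0.369 to 2.07. Values below are normalized counts, the deposited read counts divided by the size factor of their library. *Piwil1* had 2.41 to 4.53 counts in TKO clones and 8.13 to 28.8 in Ctrl clones, without overlap. *Piwil2* had 3845 to 10084 counts in TKO clones and 758 to 1028 in Ctrl clones, and *Piwil4* had 936 to 2862 in TKO clones and 487 to 769 in Ctrl clones, so the mutated *Mili* and *Miwi2* loci were still transcribed and their counts do not check the loss of protein. The 15 pluripotency genes listed summed to 146723 to 168237 counts in TKO clones and 124904 to 174026 in Ctrl clones. Of these, *Esrrb*, which has 2 records, alone had fewer than 5 normalized counts in each clone. *Dppa5a* alone had 73705 to 88577 counts in TKO and 47361 to 79966 in Ctrl clones, so the sum can hide other members. *Pou5f1* had 15866 to 19185 in TKO and 24310 to 28971 in Ctrl clones, without overlap (4.23% of tested records were lower without overlap). Whether reads from the retroviral OCT4, SOX2 and KLF4 entered the counts of *Pou5f1*, *Sox2* and *Klf4* was not tested. Of 14 pluripotency genes tested, 9 had a positive and 5 a negative log2 fold change, TKO against Ctrl. In edgeR 0 were higher and 1 lower at an adjusted p under 0.05, where 0.24% of records were called. The 4 Y-linked genes listed had 39.5 counts or more in each forties clone and 8.64 or fewer in each thirties clone, in both genotypes. *Xist*, listed with them, was present in each clone, with 625 to 892 counts in forties and 375 to 726 in thirties clones. *Kdm5d* had 46.1 and 82.9 counts in TKO forties and 67.5 and 67.2 in Ctrl forties clones, and 0 reads in each thirties clone. The clone series and Y-linked expression cannot be told apart.

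Per kilobase of transcript, *Msx2* had the highest level of the 10 genes, 59.9 ± 16.7 normalized counts per kb (mean ± SD over 8 clones). *Lhx1* followed with 41.0 ± 66.7, *T* with 39.98 ± 38.3, *Gsc* with 24.0 ± 14.7, *Wnt3* with 16.8 ± 13.6 and *Mixl1* with 15.7 ± 15.7. The SD of *Lhx1*, *Mixl1* and *Mesp1* was above their mean. *Evx1* had 10.1 ± 6.37, *Eomes* 6.50 ± 2.62, *Msx1* 1.68 ± 0.702 and *Mesp1* 0.918 ± 1.05 per kb. Neighbours in this order differed by less than the larger of their SDs, except that *Eomes* stood above *Msx1* by more than either SD. The order differed between the series. In forties clones *Lhx1* (80.8 ± 78.5 per kb) and *T* (71.9 ± 26.5) had higher means than *Msx2* (56.6 ± 22.4), by less than the larger SD, and in thirties clones *Msx2* (63.3 ± 11.01) was followed by *Gsc* (16.0 ± 8.71), *T* (8.08 ± 3.96) and *Wnt3* (7.23 ± 2.17), with *Lhx1* at 1.21 ± 1.25 (SD, n = 4 each). *Eomes* has 2 RefSeq records, and how reads matching several records were assigned is not stated, so its level is uncertain.

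To show what lies at the starts of these genes, promoter windows were read from RefSeq (GRCm38.p6), from 250 bases before to 50 after the gene start, and 9 of the 10 genes matched the table. The windows of 3 genes are printed, *T* because it had the smallest adjusted p between the clone series, *Lhx1* because it differed by the largest fold, and *Mesp1* because it held the most motif matches while it had almost no reads. Capitals mark CTTTGA, the core letters bound by TCF/LEF factors, or its reverse complement TCAAAG.
*T* promoter, chr17:8434173-8434472, plus strand: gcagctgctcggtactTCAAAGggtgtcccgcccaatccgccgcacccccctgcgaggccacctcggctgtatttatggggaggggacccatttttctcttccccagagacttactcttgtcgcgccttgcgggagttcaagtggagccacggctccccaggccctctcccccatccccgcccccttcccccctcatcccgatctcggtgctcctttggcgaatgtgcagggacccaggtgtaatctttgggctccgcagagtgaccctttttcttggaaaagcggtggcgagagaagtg
*Lhx1* promoter, chr11:84525485-84525784, minus strand: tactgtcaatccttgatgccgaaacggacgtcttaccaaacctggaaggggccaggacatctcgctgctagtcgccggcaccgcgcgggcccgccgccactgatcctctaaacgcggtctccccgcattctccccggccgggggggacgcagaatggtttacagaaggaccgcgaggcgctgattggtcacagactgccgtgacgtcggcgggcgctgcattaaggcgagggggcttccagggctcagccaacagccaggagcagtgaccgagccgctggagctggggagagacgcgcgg
*Mesp1* promoter, chr7:79793541-79793840, minus strand: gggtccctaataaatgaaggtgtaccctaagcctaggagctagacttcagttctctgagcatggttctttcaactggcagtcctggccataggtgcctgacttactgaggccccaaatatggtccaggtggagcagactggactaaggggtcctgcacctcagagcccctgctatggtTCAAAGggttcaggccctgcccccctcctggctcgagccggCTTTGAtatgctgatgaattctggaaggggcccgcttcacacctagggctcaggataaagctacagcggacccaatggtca
The *T* window held 1 match, at its base 17, the *Lhx1* window held 0, and the *Mesp1* window held 2, at bases 179 and 220. The other 6 windows held none, and 16.0% of 32851 promoters of the same length held at least 1. TCACACCT, a T-box motif, was found once, at base 256 of the *Mesp1* window (1.28% of promoters), and TGTNNATT, the FOXH1 motif, in none of the 9 (12.2% of promoters). Both strands were searched. A match here is a description of letters and not a measured site.

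More of these genes were called between the clone series than between the genotypes, and the same held for all records (19.4% against 0.24%). The 2 fits were unlike, since the genotype fit had no series term. With that term added, 1 of the 9 tested genes was called between the genotypes. *T*, *Mixl1*, *Lhx1*, *Wnt3* and *Evx1* were higher in forties than in thirties clones, by 2.73-fold (*Evx1*) to 72.7-fold (*Lhx1*), and *Gsc*, *Msx1*, *Eomes* and *Msx2* did not pass the test. The model held genotype as a term and was fitted across 16235 records with edgeR's quasi-likelihood test, with Benjamini-Hochberg adjustment and a threshold of 0.05. Of 9 tested members 5 were higher and 0 lower, against 9.84% of all tested records higher and 9.56% lower (19.4% together). The median log2 fold change was 1.45 over the 9 genes and -0.00 over all records. *Lhx1* met the filter, at least 5 reads in at least 4 libraries, only through the 4 forties clones. Its place in that count and in the median was thus bound to be a difference. Without it, the members called higher were *T*, *Mixl1*, *Wnt3* and *Evx1*.

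**Figure D1:**
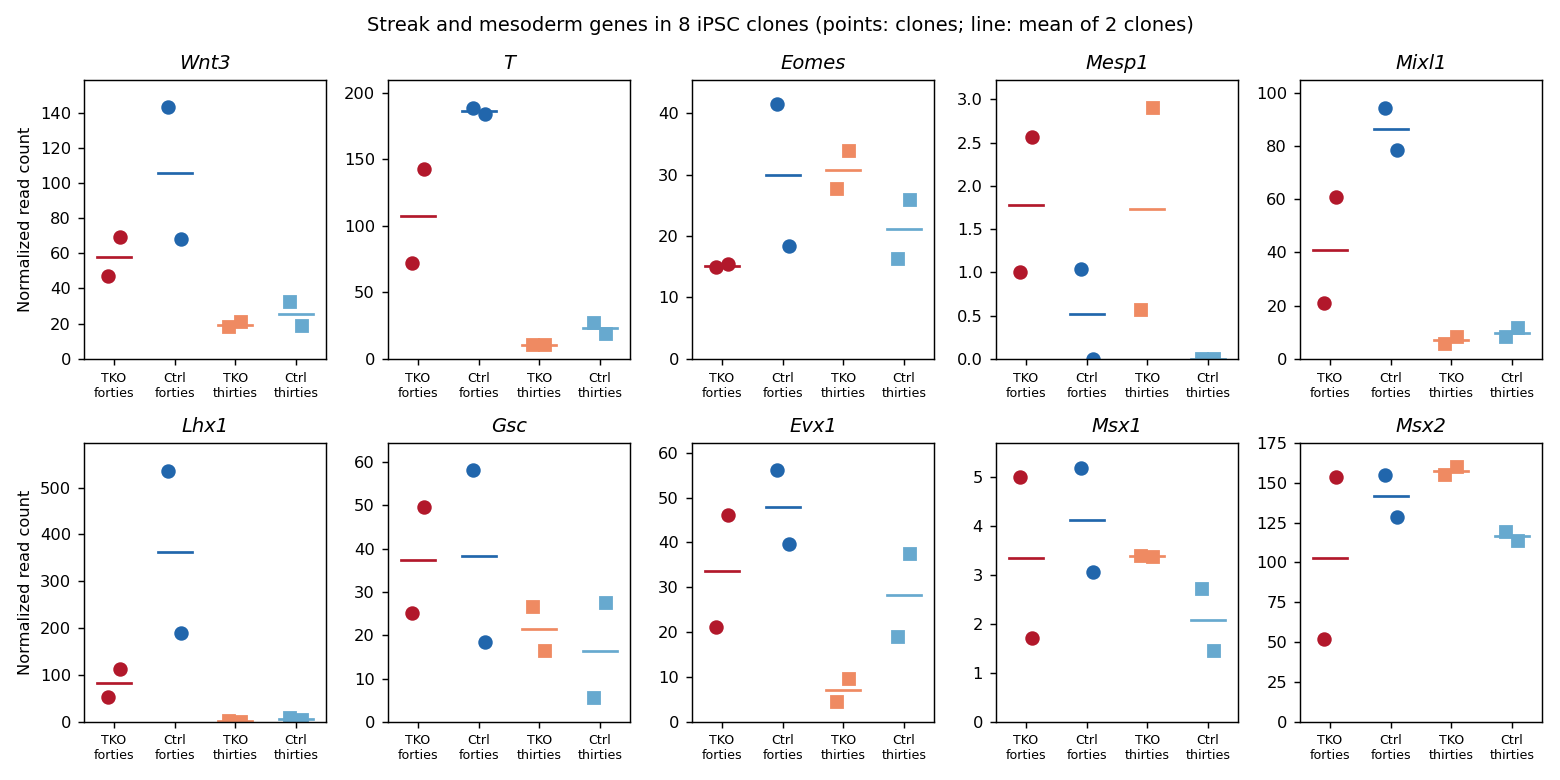
Normalized read count (vertical axis, linear, one scale per gene) of the 10 genes in TKO forties, Ctrl forties, TKO thirties and Ctrl thirties iPSC clones, with a point per clone and a line at the mean of 2 clones. *T* had 72.1 to 189 counts in forties and 10.1 to 27.1 in thirties clones, and *Mesp1* stayed below 3 counts in each clone.

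*Wnt3* encodes the WNT ligand that starts streak formation in the mouse. It had 47.1 and 69.3 counts in TKO forties and 143 and 68.3 in Ctrl forties clones, against 18.1 and 20.8 in TKO thirties and 32.5 and 18.7 in Ctrl thirties clones. The 4 forties clones were all above the 4 thirties clones, with Ctrl 41 the highest. The means were 82.0 ± 42.2 in forties and 22.5 ± 6.75 in thirties clones (SD, n = 4 each), or log2 fold change 1.81 (standard error, SE, 0.31, edgeR adjusted p = 0.00521).

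*T* encodes Brachyury, the T-box factor of the streak and notochord. Counts were 72.1 and 143 in TKO forties and 189 and 184 in Ctrl forties clones, against 10.2 and 10.1 in TKO thirties and 27.1 and 18.7 in Ctrl thirties clones. The groups did not overlap, and in each series both TKO clones were below both Ctrl clones. Between the series the means were 147 ± 54.1 in forties and 16.5 ± 8.11 in thirties clones (SD, n = 4 each), or log2 fold change 3.25 (SE 0.27, edgeR adjusted p = 0.000272).

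*Mixl1*, a homeobox gene of the streak needed for mesoderm and endoderm morphogenesis, had 21.0 and 60.7 counts in TKO forties and 94.5 and 78.5 in Ctrl forties clones, against 5.66 and 8.20 in TKO thirties and 8.13 and 11.5 in Ctrl thirties clones. TKO 47 was the lowest forties clone and still above each thirties clone. The log2 fold change was 2.76 (SE 0.37, edgeR adjusted p = 0.00190), from 63.7 ± 31.6 in forties and 8.38 ± 2.41 in thirties clones (SD, n = 4 each).

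*Lhx1*, a LIM homeobox gene of the anterior streak and nascent mesoderm, spread most. It had 52.1 and 113 counts in TKO forties and 535 and 188 in Ctrl forties clones, against 2.26 and 0 in TKO thirties and 8.13 and 2.88 in Ctrl thirties clones. In reads, forties clones had 52 to 515 and thirties clones 0 to 4. Its value of 6.18 on the log2 fold scale (SE 0.62, edgeR adjusted p = 0.000691) therefore rests on few reads in the lower group, and it was 5.58 after each library was thinned to the smallest total.

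*Evx1*, a homeobox gene of the posterior streak, had 21.0 and 46.2 counts in TKO forties and 56.1 and 39.7 in Ctrl forties clones, against 4.53 and 9.65 in TKO thirties and 19.0 and 37.4 in Ctrl thirties clones. The groups overlapped, since Ctrl 34 of the thirties was above TKO 47 of the forties. The means were 40.8 ± 14.8 in forties and 17.6 ± 14.5 in thirties clones (SD, n = 4 each), with a log2 fold change of 1.45 (SE 0.43, edgeR adjusted p = 0.0420). That call was lost without a genotype term (adjusted p = 0.135 in edgeR), in thinned libraries (adjusted p = 0.0997), and when Ctrl 33, Ctrl 41, TKO 35, TKO 37, TKO 47 or TKO 48 was left out in turn (adjusted p = 0.0632 to 0.131).

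*T*, *Mixl1* and *Wnt3* did not overlap between the series, with forties higher, against 8.35% of tested records without overlap and higher and 7.72% without overlap and lower. *Lhx1* did not overlap either, but it met the filter through the forties clones alone, so this was fixed by the filter and is not counted. The exact two-sided permutation p of *T*, *Mixl1* and *Wnt3* was 0.0286 each over 70 arrangements of the 8 clones, the smallest value these can give. Genes without overlap must give this value, so it adds nothing to the lack of overlap. The arrangements did not take genotype into account. For *Evx1* the permutation p was 0.0571 and for the untested *Mesp1* 0.657. The calls of *T*, *Mixl1* and *Wnt3* held in every alternative fit in which they could be tested, with an adjusted p of 0.0308 or less in edgeR, DESeq2 and limma-voom. *Lhx1* was called too in each fit that held it, but for the reason given above these calls are not counted.

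Within each genotype *T*, *Mixl1* and *Wnt3* were higher in forties clones. Their lack of overlap between the series had fixed this direction, so it adds nothing to that result. These contrasts came from a model fitted to the clones of both genotypes, so each p drew on the spread in both. Among TKO clones the log2 fold change was 3.40 for *T*, 2.55 for *Mixl1* and 1.58 for *Wnt3* (edgeR adjusted p from 0.000787 to 0.0226), where 13% of records were higher. Among Ctrl clones it was 3.08, 3.06 and 2.12 in the same order of genes (adjusted p from 0.00586 to 0.0308), where 3.26% were higher. *Lhx1* had 6.17 among TKO and 6.21 among Ctrl clones. It met the filter through the forties clones alone, so its difference was fixed by the filter and is not counted. *Evx1* was higher among TKO clones (2.22, adjusted p = 0.0149) and had 0.67 among Ctrl clones (adjusted p = 0.442). That difference is the interaction given further on, which did not pass.

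*Eomes*, the T-box gene of the anterior streak and trophoblast, had 15.0 and 15.4 counts in TKO forties and 41.5 and 18.3 in Ctrl forties clones, against 27.7 and 33.8 in TKO thirties and 16.3 and 25.9 in Ctrl thirties clones. Between the series its log2 fold change was -0.35 (SE 0.38, edgeR adjusted p = 0.543), and its clones did not follow the pattern of *T*. *Gsc*, the homeobox gene of the organizer, had 25.0 and 49.6 counts in TKO forties and 58.2 and 18.3 in Ctrl forties clones, against 26.6 and 16.4 in TKO thirties and 5.42 and 27.4 in Ctrl thirties clones (0.91, SE 0.45, adjusted p = 0.185). The series overlapped for both genes, and 2 reads stand behind the *Gsc* value of Ctrl 33.

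*Msx1* and *Msx2* are homeobox targets of BMP signals. *Msx2* had 52.1 and 154 counts in TKO forties and 155 and 128 in Ctrl forties clones, against 155 and 160 in TKO thirties and 119 and 114 in Ctrl thirties clones (log2 fold change -0.18, SE 0.32, edgeR adjusted p = 0.717). TKO 47 was the 1 clone that stood apart. *Msx1* had 1 to 7 reads per clone and a log2 fold change of 0.30 (SE 0.51, adjusted p = 0.750). *Mesp1*, the bHLH gene of nascent and cardiac mesoderm, had 1, 3, 1 and 6 reads in TKO 47, TKO 48, TKO 35 and TKO 37, against 1 read in Ctrl 41 and 0 in the other Ctrl clones, and a difference was not detectable at this depth (exact permutation p = 0.0857 between the genotypes).

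**Figure D2:**
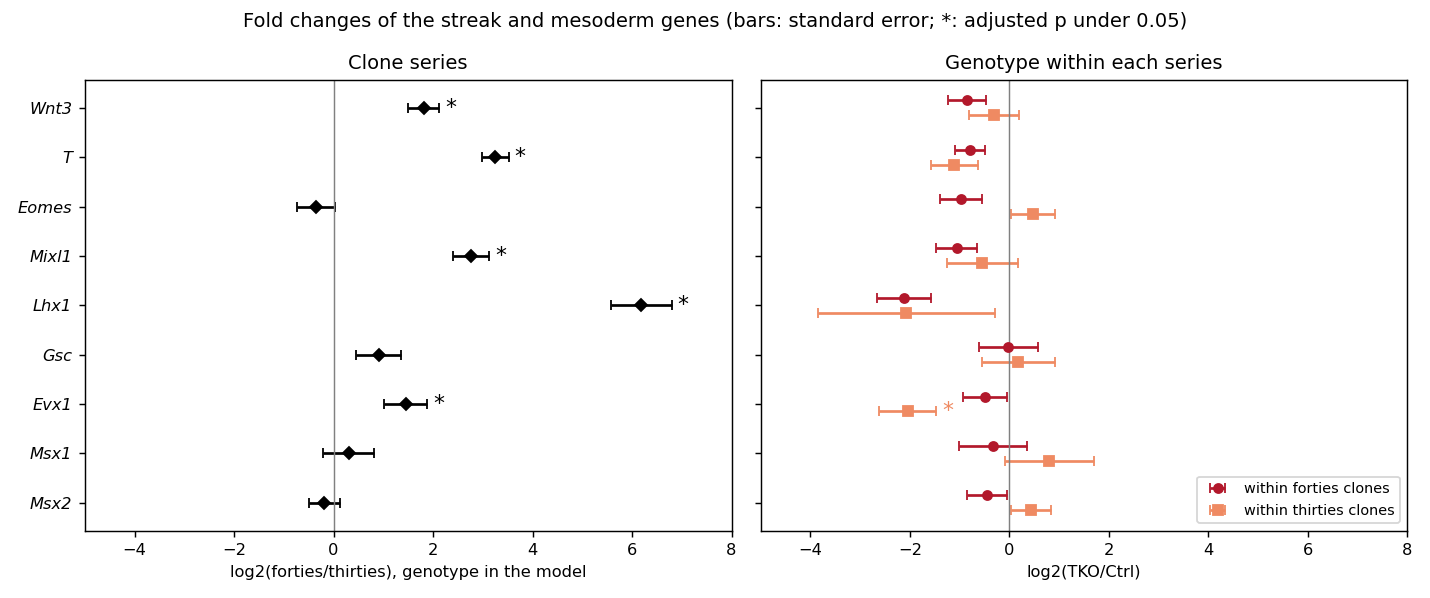
Log2 fold change (horizontal axes) of the 9 tested genes between forties and thirties clones (left) and between TKO and Ctrl clones within each series (right), with bars of 1 standard error and a star at an edgeR adjusted p under 0.05. The left panel has 5 stars, from 1.45 for *Evx1* to 6.18 for *Lhx1*, whose difference was fixed by the filter. The right panel has 1, at *Evx1* within thirties clones (-2.04).

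Between genotypes over all 8 clones, none of the 9 tested genes passed the test, and TKO and Ctrl clones overlapped for all 10, while 4.1% of tested records were higher and 4.23% lower in TKO clones without overlap. The values that lay furthest from 0 were those of *Lhx1*, with 41.8 ± 53.1 counts in TKO and 184 ± 250 in Ctrl clones (SD, n = 4 each), or log2 fold change -2.21 (SE 1.496, edgeR adjusted p = 0.498), and *Mixl1*, with -1.11 (SE 0.86, adjusted p = 0.557). *Evx1* had -0.98, *T* -0.90, *Wnt3* -0.82 and *Eomes* -0.16, and *Gsc*, *Msx1* and *Msx2* lay between 0.01 and 0.03. In this comparison 0.24% of records were called, 0 of the 9 genes had an unadjusted p under 0.05 (14.8% of records), limma-voom called 0 of the 9 and DESeq2 0 of the 8 for which it gave an adjusted p. When clone series was added as a term, *Lhx1* was the 1 member called, lower in TKO clones (-2.12, edgeR adjusted p = 0.0477), where 3.1% of records were lower.

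Within thirties clones *Evx1* was lower in TKO clones, with 4.53 and 9.65 counts against 19.0 and 37.4 in Ctrl clones, or log2 fold change -2.04 (SE 0.57, edgeR adjusted p = 0.0499). It was the 1 of 9 genes called, where 7.05% of records were lower, 4.83% higher and 11.9% called in either direction. *T* had 10.2 and 10.1 counts in TKO and 27.1 and 18.7 in Ctrl clones (-1.11, adjusted p = 0.158), and the other 7 genes had log2 fold changes from -2.07 (*Lhx1*, SE 1.78) to 0.81 (*Msx1*, SE 0.90). The *Evx1* call sat at the threshold and was lost with TMM scaling or counts summed per symbol (adjusted p = 0.0511 in both), with limma-voom (0.05), in thinned libraries (0.102), and without Ctrl 34, Ctrl 41, Ctrl 43, TKO 35 or TKO 37 (0.0818 to 0.349). The 14 fibroblast markers, which the feeder MEFs also express, summed to 26478 and 24427 counts in these TKO clones and 73513 and 45827 in these Ctrl clones, with 11 of 14 lower in TKO clones and none at 0, and their part in the *Evx1* value was not tested.

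Within forties clones none of the 9 tested genes passed the test. Their log2 fold changes had a median of -0.79 against 0.01 over all records, and ran from -2.12 for *Lhx1* to -0.02 for *Gsc*. The sign of *Gsc* turned without Ctrl 41 (1.03) or TKO 47 (0.38) and with limma-voom (0.13), that of *Msx1* without Ctrl 41 (0.08) or TKO 48 (0.27), and that of *Msx2* without TKO 47 (0.12). *Lhx1* came closest to the threshold, with 52.1 and 113 counts in TKO and 535 and 188 in Ctrl clones (-2.12, SE 0.55, edgeR adjusted p = 0.0824). *Mixl1* had 21.0 and 60.7 counts in TKO and 94.5 and 78.5 in Ctrl clones (-1.06, adjusted p = 0.198), and *Eomes* had 15.0 and 15.4 in TKO clones against 41.5 and 18.3 in Ctrl clones (-0.97, adjusted p = 0.252). Single clones moved these values, since without Ctrl 41 *Eomes* had -0.27 and *Lhx1* -1.18, *Mixl1* had -0.51 without TKO 47 and -2.04 without TKO 48, and *Eomes* had -0.18 in thinned libraries. Of all records 1.98% were called and 1.17% were lower. At an unadjusted p under 0.05, 5 of the 9 genes differed, *T*, *Mixl1*, *Eomes*, *Lhx1* and *Wnt3*, against 19.8% of records. Limma-voom called 0 of the 9, and DESeq2 0 of the 4 for which it gave an adjusted p. *Lhx1* was called without the filter (adjusted p = 0.0122) and without Ctrl 33 (0.0402) or Ctrl 34 (0.0399).

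The genotype effect did not pass a test of its difference between the series for any of the 9 genes, where 1.3% of records did in edgeR. The values furthest from 0, the effect in forties minus that in thirties clones, were 1.54 for *Evx1* (SE 0.72, adjusted p = 0.290) and -1.45 for *Eomes* (SE 0.61, adjusted p = 0.247). *Eomes* was the 1 gene of the 9 with an unadjusted p under 0.05 (18.7% of records), and limma-voom called 0 of the 9 and DESeq2 0 of the 5 for which it gave an adjusted p. For *T* and *Lhx1* the differences were 0.32 (SE 0.55) and -0.05 (SE 1.53), and both changed sign in some alternatives.

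Among 40 other genes of the streak and early mesoderm, 33 were tested, and 8 were higher and 3 lower in forties clones, where 9.84% of all records were higher and 9.56% lower. The median log2 fold change was 0.23. The 4 with the largest change were *Cer1*, a secreted NODAL and BMP antagonist (5.22), *Foxa2*, a factor of the anterior streak and endoderm (3.42), *Hand1*, a bHLH gene of extraembryonic mesoderm and trophoblast (-2.96), and *Sp5*, a target of WNT signals (2.54), with edgeR adjusted p from 0.000883 to 0.00275. *Cer1* had 94.2 and 64.1 counts in TKO forties and 532 and 119 in Ctrl forties clones, against 3.96 and 2.41 in TKO thirties and 2.71 and 5.76 in Ctrl thirties clones, and was highest in Ctrl 41, as *Lhx1* was. *Hand1* had 100.2 and 58.1 counts in TKO forties and 62.3 and 39.7 in Ctrl forties clones, against 691 and 1044 in TKO thirties and 330 and 202 in Ctrl thirties clones, the opposite order. Also called higher were *Pdgfra*, *Fgf17*, *Snai2*, *Kdr* and *Meox1* (0.88 to 1.93), and also called lower were *Dll1* and *Cdx1* (-2.02 and -1.96).

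A further list held 27 genes that transmit the streak signals, receptors, SMADs, TCF/LEF factors and WNT secretion genes among them. Of these 25 were tested, and 0 were higher and 1 lower in forties clones, *Acvr1b*, an activin receptor (-0.52), with a median of 0.05, against the same 9.84% and 9.56% of records. Levels in the list were uneven, with 37.2 to 86.7 counts per clone for *Ctnnb1* and 2.71 to 8.64 for *Smad5*, against 4449 to 6727 for *Apc*. How reads matching several records were assigned is not stated, so the low levels are uncertain, and their cause was not tested. Within thirties clones 4 of the 25 were lower and 1 higher in TKO clones, where 7.05% of all records were lower and 4.83% higher. *Lefty2* and *Lefty1*, NODAL antagonists and targets, had -2.61 and -2.33, *Lef1* -1.16 and *Wls*, needed for WNT secretion, -0.75, and *Acvr1b* was the higher one (0.64). *Lefty1* had 463 and 375 counts in TKO thirties and 2321 and 1892 in Ctrl thirties clones. Within forties clones *Bmpr2* was the 1 lower gene (-0.82, edgeR adjusted p = 0.0486), where 1.17% of records were lower. Of the 33 other streak genes, 3 were higher in TKO thirties clones (*Hand1* 1.73, *Mesp2* 1.53, *Wnt3a* 1.13) and 3 lower (*Hand2* -1.74, *Snai2* -0.94, *Nodal* -0.67). In edgeR 0 of the 33 passed within forties clones or over all clones. At an unadjusted p under 0.05 there were 6 within forties clones, against 19.8% of all records. Over all clones there was 1, against 14.8% of all records.

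The genotype effect differed between the series for *Wnt3a*, a WNT ligand of the streak, and for *Lefty1* and *Lefty2*. These were 1 of the 33 other streak genes and 2 of the 25 signal genes, where 1.3% of all records were called. *Wnt3a* had 14.0 and 14.5 counts in TKO forties and 31.2 and 45.8 in Ctrl forties clones, and 78.7 and 86.4 in TKO thirties against 46.0 and 31.7 in Ctrl thirties clones. TKO clones were thus the lower ones in the forties and the higher ones in the thirties, with a log2 difference of -2.56 (SE 0.45, edgeR adjusted p = 0.0388). For *Wnt3* itself the same difference was -0.54 (SE 0.63, adjusted p = 0.696).

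**Figure D3:**
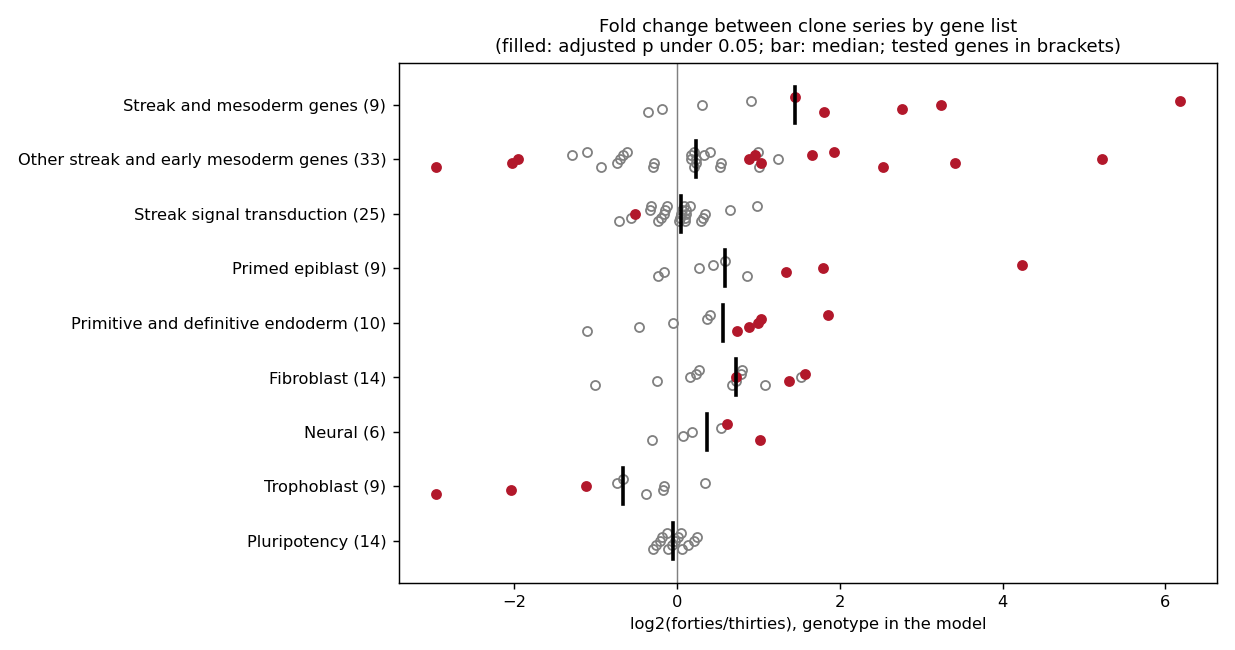
Log2 fold change between forties and thirties clones (horizontal axis) of each tested gene of 9 lists (rows, number of tested genes in brackets), filled where the edgeR adjusted p was under 0.05, with a bar at the median of each list. The median was 1.45 for the 9 streak and mesoderm genes, 0.23 for the 33 other streak genes and -0.04 for the 14 pluripotency genes. The 9 include *Lhx1*, which met the filter only through the forties clones and was bound to differ.

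Lists of other cell states are given by the same counts between the series, read against 9.84% of records higher, 9.56% lower and 19.4% called in either direction. An unadjusted p under 0.05 was reached by 35.2% of records in this edgeR comparison. Of 9 primed epiblast genes 3 were higher in forties clones, *Fgf5* (4.24, edgeR adjusted p = 0.000311), *Otx2* (1.80) and *Cdh2* (1.34), and the list summed to 6656 to 8154 counts in forties and 5198 to 6112 in thirties clones. Of 10 tested endoderm genes 5 were higher, *Sox17*, *Cxcr4*, *Lama1*, *Lamb1* and *Sox7* (0.74 to 1.85), and 3 had a negative log2 fold change, 1 with an unadjusted p under 0.05. *Hnf4a* had 21.4 to 143 counts in forties and 53.3 to 235 in thirties clones, and *Ttr* under 5 in each clone. The list summed to 8855 to 12869 counts in forties and 5297 to 8061 in thirties clones. *Lamb1* alone had 6239 to 9513 and 3432 to 6208 of these, so the sums say little of the other genes. Of 9 tested trophoblast genes 3 were lower, *Hand1*, *Esx1* and *Gata3* (-2.96 to -1.11), with sums of 1696 to 4913 in forties and 1869 to 5241 in thirties clones. Fibroblast markers had 3 of 14 higher and overlapping sums, 31647 to 47742 in forties and 24427 to 73513 in thirties clones, 2 of 6 tested neural genes were higher, with *Dcx* at 0 reads in each clone, and 0 of 14 tested pluripotency genes passed (1 at an unadjusted p under 0.05). Their part in the levels of *T*, *Mixl1*, *Lhx1*, *Wnt3* and *Evx1* was not tested.

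**Figure D4:**
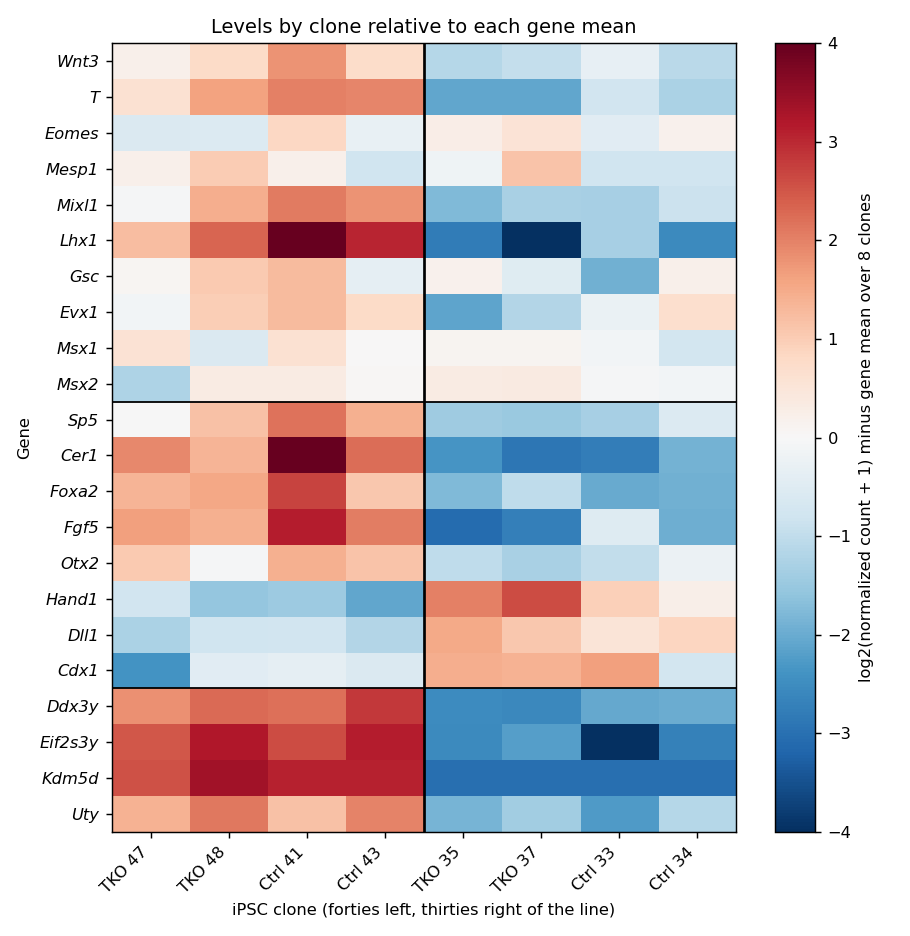
Log2(normalized count + 1) minus the mean of the gene over 8 clones (colour, limited to 4 in either direction) for the 10 genes, other streak and epiblast genes and 4 Y-linked genes (rows), by clone (columns, forties left of the line). *Wnt3*, *T*, *Mixl1* and *Lhx1* are red to white in forties and blue in thirties clones, *Hand1*, *Dll1* and *Cdx1* mostly the reverse, and *Eomes*, *Gsc*, *Msx1* and *Msx2* show no division at the line.

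Likeness of pattern was measured as the root mean square difference of centred log2(normalized count + 1) over 8 clones, among 12407 symbols with a mean of at least 20 counts, and is a description without a test. The genes most like *T* were *Gbp2* (0.35), *Efemp1* (0.38) and *Tgfbi* (0.38), and those most like *Mixl1* were *Sp5* (0.24), *T* (0.46) and *Wnt2* (0.47). *Lhx1* was nearest to *Tnn* (0.90), *Cer1* (0.96) and *Fgf5* (1.02), *Wnt3* to *Igfbp3* (0.27), *Sema6a* (0.27) and *Dgkk* (0.28), and *Evx1* to *Asxl3* (0.32), *Slc7a3* (0.34) and *Abo* (0.34). Among the 9 tested members the closest pair was *T* and *Mixl1* (0.46) and the most distant *Eomes* and *Lhx1* (3.16).

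On mm9, *T* lies on chromosome 17 from 8627288 to 8635361, *Mixl1* on chromosome 1 from 182623174 to 182627165 and *Evx1* on chromosome 6 from 52263492 to 52268372. *Lhx1* (84331479 to 84338923) and *Wnt3* (103635464 to 103679271) are both on chromosome 11, far apart. The 5 genes called between the series, *Lhx1* among them, thus lie on 4 chromosomes, none of them sex-linked. The difference of *Lhx1* was fixed by the filter.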

How the data were processed

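The authors made TruSeq libraries from total RNA, sequenced them on an Illumina instrument and aligned the reads to mm9 transcripts. The submitters' notes name BWA 0.7.5a as the aligner. The deposited table holds whole-number read counts for 27052 RefSeq records in 8 clones, neither scaled nor filtered, and the record lengths. The rule for reads that match several records, and for strand, is not given in the sources used here. Symbols came from a RefSeq table (GRCm38.p6) for 26321 records and from the paper for 1, and 730 have none. Positions came from GENCODE vM1 on mm9.

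The filter required 5 or more reads in 4 or more of 8 libraries and left 16235 records (60% of the table), tested in R 4.3.3 with edgeR 4.0.16 (glmQLFit, glmQLFTest) on the deposited counts with median-ratio size factors. Called means a Benjamini-Hochberg adjusted p under 0.05. Contrasts were TKO against Ctrl on all clones without covariates, forties against thirties clones with genotype as a term, and from a model of 4 groups the genotype contrast within each series and their difference. The same contrasts were repeated with TMM scaling, without a filter, with 10 or more reads required throughout, with DESeq2 1.42.0, with limma-voom (limma 3.58.1), after summing counts per symbol, after adding the clone series or dropping the genotype, and without each clone. Thinned libraries and the series contrast within each genotype were added after the data were seen. The fits were tested on simulated counts, and no result of that is given here.

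The 10 genes and the other lists were chosen with earlier results of these data known. Named besides the 10 were list members called in a comparison, the 4 with the largest change where more were called, with others named after their values were seen, and the 3 symbols most alike to *T* and to each called member. Exact permutation tests were two-sided. Intervals and standard errors cover the spread between clones only.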

Additional observations from a re-analysis of the deposited data

Results flagged for a closer look

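In 40 groups of 4 clones, 1 clone stood far from the other three in 3 groups by Dixon's ratio of gap to range, above 0.829. By chance a share of about 0.05 of such groups would be picked out. *Eomes* in Ctrl 41 had 41.5 normalized counts, against 15.0 to 18.3 in the other forties clones (ratio 0.875). *Mesp1* in Ctrl 41 had 1.04 normalized counts, from 1 read, against 0 in the other Ctrl clones (ratio 1). *Msx2* in TKO 47 had 52.1 normalized counts, against 154 to 160 in the other TKO clones (ratio 0.946).

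The effect of the genotype differed between forties and thirties clones, by the test of that difference in edgeR, for 3 genes of the streak lists. These were 1 of 33 tested other streak genes and 2 of 25 tested signal genes, where 1.3% of records were called. It was not particular to these lists, since 7 of 14 fibroblast markers were called too. The difference, forties minus thirties, was -2.56 for *Wnt3a* (SE 0.45, adjusted p = 0.0388), 2.51 for *Lefty1* (SE 0.33, adjusted p = 0.0197) and 2.64 for *Lefty2* (SE 0.35, adjusted p = 0.0197). *Lefty1* had 1156 and 683 counts in TKO forties and 841 and 781 in Ctrl forties clones, and 463 and 375 in TKO thirties against 2321 and 1892 in Ctrl thirties clones.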

How the results depend on the processing

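Of 834 alternative values 710 kept their direction and side of the threshold, or stayed within 1.5 times for a count, and 46 changed sign, none of them called in either fit, with a size of at most 0.55 on the log2 scale as reported and an adjusted p of at least 0.573 in the alternative. In the TKO against Ctrl comparison on all clones, 39 records were called, 513 by DESeq2, 926 with the clone series in the model, where 1 member (*Lhx1*) was called, and 14 (without TKO 37) to 83 (without TKO 48) when 1 clone was left out, with 0 members in each of those. Between forties and thirties clones, 3149 records were called, 1413 without a genotype term, 1068 within Ctrl clones and 1296 (without TKO 35) to 3831 with 1 clone left out, with 4 to 5 members. At least 10 reads in every library left 2 called members, because *Mixl1*, *Lhx1* and *Evx1* were not tested then. Within thirties clones, 1928 records were called, 26 (without TKO 35) to 3460 (without Ctrl 33) with 1 clone left out, with 0 to 1 members, and 0 members with TMM, at least 10 reads in every library, limma-voom, summed counts and thinned libraries. Within forties clones, 322 records were called, 732 without a filter with 1 member (*Lhx1*), 1125 by DESeq2, 193 in thinned libraries and 7 (without Ctrl 41) to 1489 (without Ctrl 33) with 1 clone left out, with 0 to 1 members. For the difference between the series, 211 records were called, 671 without a filter, 934 by DESeq2, 88 in thinned libraries and 1 to 1314 (without Ctrl 33) with 1 clone left out, with 0 members. A series left with 1 clone of a genotype was assumed to vary like the other groups, and the cause of these moves was not tested.

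The log2 fold changes that changed sign were these. For TKO against Ctrl on all clones, limma-voom gave -0.07 for *Msx1* and -0.063 for *Msx2*, the clone series in the model -0.015 for *Msx2*, and thinned libraries 0.093 for *Eomes*. With 1 clone left out, *Eomes* ran from -0.41 to 0.194, *Gsc* from -0.359 to 0.691, *Msx1* from -0.2 to 0.443 and *Msx2* from -0.099 to 0.273. Between forties and thirties clones, *Eomes* had 0.254 in thinned libraries and 0.433 within Ctrl clones, *Msx1* -0.059 within TKO clones, and *Msx2* 0.285 within Ctrl clones and -0.42 to 0.15 with 1 clone left out. Within thirties clones, *Gsc* ran from -0.357 to 1.954 and *Wnt3* from -0.737 to 0.059 with 1 clone left out. Within forties clones, *Gsc* had 0.132 with limma-voom and -0.627 to 1.034 with 1 clone left out, *Msx1* -1.216 to 0.274 and *Msx2* -1.442 to 0.12. The difference between the series was 0.112 by DESeq2 and 0.766 by limma-voom for *Lhx1* and -0.007 in thinned libraries for *T*, and with 1 clone left out it ran from -0.27 to 0.713 for *T*, -1.489 to 0.035 for *Mixl1*, -1.97 to 0.85 for *Gsc*, -1.083 to 3.222 for *Lhx1* and -0.983 to 0.09 for *Wnt3*.

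No paired analysis was possible because TKO and Ctrl clones share no number. Depth limits *Mesp1* and *Msx1*, with at most 6 and 7 reads per clone, and *Lhx1* in thirties clones, with at most 4. The clone series cannot be told apart from Y-linked expression, and each group of genotype and series holds 2 clones.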
